A study of Homo sapiens with 6 samples.

Results

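This account covers 152 antisense genes of PC9-BrM3 cells and the protein-coding genes on the other DNA strand that they overlap. Members were the rows of the deposited expression table that carry the biotype antisense and have a mean of at least 3 FPKM (fragments per kilobase of exon, scaled to library size) over 6 libraries. Of 58735 rows, 5583 were antisense rows and 155 reached that level, and SNHG7, SNHG12 and ZFAS1, which host small nucleolar RNAs, were left out by name. Members were thus selected on their mean FPKM over both groups, so their abundance is a description. The difference between the groups was not itself a criterion, but a gene that is high in 1 group can pass through that group. Just inside the threshold were AC009065.8 (3.04 FPKM), AL031709.1 (3.03) and AC005586.1 (3.003), and just outside were KCNMB2-AS1 (2.998), AC000123.1 (2.99) and CD44-AS1 (2.98).

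PC9-BrM3 is a derivative of the human lung adenocarcinoma line PC9 that was selected for spread to the brain by repeated passage through mice. Both groups carried a short hairpin RNA from the LV2 lentiviral vector and were kept in routine culture without drug. BrM3-shAKR1B10 (labelled AKR1B10 knockdown, n = 3) expressed the hairpin that the study calls vector 1 against AKR1B10, an aldo-keto reductase that detoxifies reactive carbonyls, and BrM3-shNC (labelled WT, n = 3) expressed a negative control hairpin. A single hairpin was thus compared, and the labels name no separate cultures, so the p-values measure the spread between these libraries, which may be technical, and an effect of the hairpin other than silencing cannot be told apart from that of AKR1B10.

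Antisense genes are read from the strand opposite to another gene. Some start beside a coding gene and run away from it, because mammalian promoters often fire in both directions. Others start inside or beyond the coding gene and run through it. Many of their RNAs are short-lived and are degraded in the nucleus by the exosome, but a few are stable and have functions of their own. HOTAIR, read from within the HOXC cluster, is known for binding chromatin-modifying complexes, and AFAP1-AS1 is known for its abundance in several cancers, lung cancer among them.

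The targeted gene AKR1B10 had 108.5 ± 1.52 FPKM (SD, n = 3) after silencing, against 781.9 ± 14.6 FPKM (n = 3) with the control hairpin. Library totals on genes ran from 16964504 to 18709028 reads, and 3 reads on 1000 bases amount to 0.163 to 0.177 FPKM. The epithelial markers EPCAM, KRT8, KRT18, KRT19, CDH1, EGFR and MUC1 were present at 4.43 to 935 FPKM, whereas the lung lineage genes NKX2-1, SFTPB and NAPSA were at 0.155, 0.00885 and 0.483 FPKM. Markers of blood, fibroblasts, endothelium and brain cells reached at most 1.6 FPKM (COL1A1), and DCN was at 0. BrM3-shNC replicate 1 stood apart from the other control libraries, with a chi-square per gene of 4.88 and 5.42 against them, where the other replicate pairs gave 2.45 to 2.70. Without it, 11 members were lower and 25 higher, where all 6 libraries gave 10 and 23.

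The sequences shown are regions where an antisense and a coding gene start back to back. The antisense to coding ratio differed between the groups in 4 such pairs when pairs with near starts were compared. This comparison was chosen after the data were seen. Of the antisense genes in these pairs, SAP30L-AS1, TAF1A-AS1 and AL355075.4 are members through BrM3-shAKR1B10 alone, so their direction follows in part from the choice of members. Each sequence is the RefSeq promoter window of the coding gene (GRCh38.p14), from 250 bases before to 50 bases after its start, written 5′ to 3′ on the strand of the coding gene. Capitals mark the bases that lie in annotated exons of the antisense gene and of no other gene, and are therefore bases on which its reads could be counted. The windows are those of SAP30L (chr5:154445747-154446046, plus strand, antisense gene SAP30L-AS1), GMEB2 (chr20:63627052-63627351, minus strand, antisense gene MHENCR), TAF1A (chr1:222589884-222590183, minus strand, antisense gene TAF1A-AS1) and PARP2 (chr14:20343385-20343684, plus strand, antisense gene AL355075.4).
SAP30L: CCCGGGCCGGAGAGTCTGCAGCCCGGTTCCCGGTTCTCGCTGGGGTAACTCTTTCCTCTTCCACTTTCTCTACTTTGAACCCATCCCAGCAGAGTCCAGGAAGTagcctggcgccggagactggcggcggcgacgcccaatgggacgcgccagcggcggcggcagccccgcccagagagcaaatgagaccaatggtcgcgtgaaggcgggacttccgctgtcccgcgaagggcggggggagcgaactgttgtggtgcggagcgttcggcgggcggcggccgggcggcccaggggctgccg
GMEB2: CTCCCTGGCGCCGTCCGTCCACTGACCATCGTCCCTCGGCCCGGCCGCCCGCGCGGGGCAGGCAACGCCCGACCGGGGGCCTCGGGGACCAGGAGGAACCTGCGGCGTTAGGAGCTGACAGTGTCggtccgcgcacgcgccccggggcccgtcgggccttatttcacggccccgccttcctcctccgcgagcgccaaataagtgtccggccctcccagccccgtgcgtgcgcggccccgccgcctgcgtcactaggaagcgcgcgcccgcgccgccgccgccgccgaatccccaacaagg
TAF1A: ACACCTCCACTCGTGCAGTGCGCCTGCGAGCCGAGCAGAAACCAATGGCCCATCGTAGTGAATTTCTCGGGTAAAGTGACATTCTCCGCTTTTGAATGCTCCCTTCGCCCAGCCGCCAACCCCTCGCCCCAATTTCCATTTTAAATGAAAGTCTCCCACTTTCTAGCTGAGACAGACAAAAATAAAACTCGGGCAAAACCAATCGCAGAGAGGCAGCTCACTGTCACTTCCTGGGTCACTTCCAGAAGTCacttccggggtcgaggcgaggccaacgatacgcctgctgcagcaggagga
PARP2: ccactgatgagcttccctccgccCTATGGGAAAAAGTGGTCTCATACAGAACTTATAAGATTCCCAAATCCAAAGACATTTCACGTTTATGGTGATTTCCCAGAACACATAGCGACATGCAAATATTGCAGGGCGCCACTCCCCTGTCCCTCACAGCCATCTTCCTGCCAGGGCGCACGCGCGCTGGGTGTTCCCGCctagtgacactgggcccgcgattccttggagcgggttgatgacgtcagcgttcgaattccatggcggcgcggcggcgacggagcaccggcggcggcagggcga

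The antisense gene had 104 own bases in the SAP30L window, 125 in that of GMEB2, 250 in that of TAF1A and 174 in that of PARP2. In all 4 windows the antisense gene is read leftwards as printed. Among the 51 coding genes with a start within 1000 bases of a member's start, 44 were matched by symbol in the RefSeq promoter table of 35116 windows. The letters CCAAT, on either strand, were in 17 of these 44 windows (38.6%) and in 34.6% of all windows. The letters GGGCGG were in 31 (70.5%) and in 45.0% of all, and TATAAA in 2 (4.55%) and in 11.5% of all. Median GC content was 66% in these windows and 58.7% over all of them. The motifs were searched as spelled, and a match is a description of the letters only.

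How the reads were counted bears on every value here. The library protocol describes no step that marks the strand. Of 339 antisense rows whose exon bases all lie in exons of other genes, 338 had 0 reads in all 6 libraries, and of the 324 among them that are covered entirely by exons of the opposite strand, 324 had 0 reads. Of the 5244 antisense rows with some exon base of their own, 1783 had 0 reads. Of coding rows, 18 were covered entirely by exons of the opposite strand, and 18 had 0 reads. Rows of either kind that were covered entirely by exons of the opposite strand thus held no reads, as when such reads are counted on neither gene. None of the 339 antisense rows held over 1 read in all. The FPKM of a member therefore rests on its own bases although the whole exon length divides it. Of the 152 members, 62 shared no exon base with any gene, 10 had under 50% of their exon bases to themselves, and the median was 92.4%. Reads of a coding gene's introns or unannotated ends that fall on the own bases of a member cannot be told apart from its own reads.

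**Figure D1:**
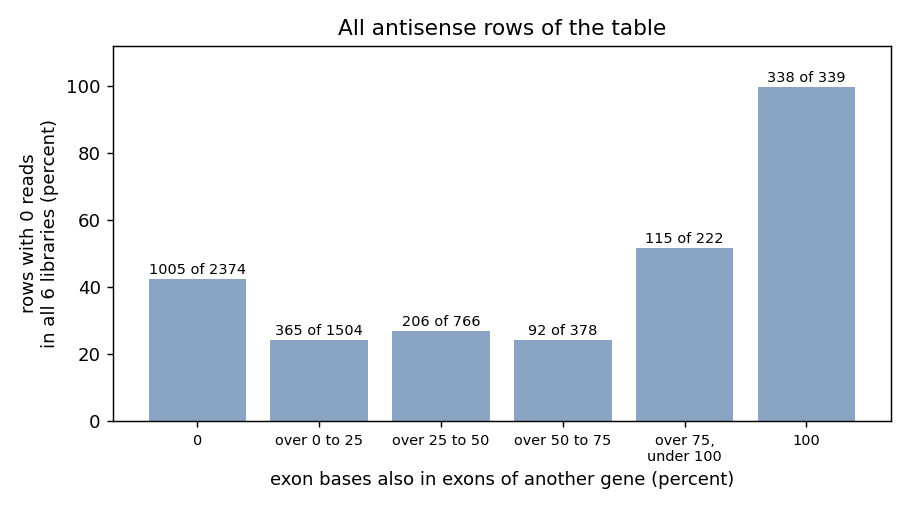
Antisense rows without a read. Bars give the percent of antisense rows with 0 reads in all 6 libraries (y axis) by the percent of their exon bases that also lie in exons of another gene (x axis), with the counts above. With 100% covered, 338 of 339 rows had no read, against 115 of 222 rows with over 75 but under 100% covered.

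Members spanned 3.003 to 38.6 FPKM, with a median of 5.16. They held 51 to 19423 reads over the 6 libraries (median 617), and 13 had under 200. The most abundant were AL365181.3 (38.6 FPKM), AL355075.4, FGD5-AS1, AP003119.1 and AC008735.2, and 97 members carry clone names only. FGD5-AS1 was at 34.9, 35.6 and 33.8 FPKM in BrM3-shAKR1B10 and at 35.7, 36.6 and 35.8 FPKM in BrM3-shNC. Its groups did not overlap, but the difference was small (log2 fold change -0.05 ± 0.03 SE, limma adjusted p = 0.258), and the coding gene it overlaps, FGD5, was at 0.0172 FPKM. KRT7-AS, opposite to the keratin gene KRT7, had a log2 fold change of 0.03 ± 0.05. AC089983.1, inside the thioredoxin reductase gene TXNRD1, had -0.15 ± 0.04 (limma adjusted p = 0.0187), under the fold threshold, and AC008735.2, inside the splicing factor gene U2AF2, had -0.31 ± 0.14 (limma adjusted p = 0.109).

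Silencing of AKR1B10 went with 23 higher and 10 lower members (15.1% and 6.58% of 152). A gene was called when limma's adjusted p over the 13150 rows with a mean of at least 1 FPKM was under 0.05 and its log2 fold change, on the log2(FPKM + 0.1) scale, was beyond 0.5 in either direction. Over all rows tested, 5.83% were called higher and 7.45% lower. The median log2 fold change was 0.14 over the members and -0.01 over all rows tested, and 99 members (65.1%) lay above 0, against 48.4% of all rows. In 22 members the mean was under 3 FPKM in 1 group (14 in BrM3-shNC, 8 in BrM3-shAKR1B10), so that they passed through the other group, and these held 3 of the lower and 8 of the higher calls, among them HOTAIR, HOXC13-AS, AC072022.2, SLC12A9-AS1, SAP30L-AS1 and AL355075.4, so the direction of these follows in part from the choice of members. The 130 members at 3 FPKM or more in both groups had 15 higher, 7 lower and a median of 0.13. The groups did not overlap in 66 members (43.4%), and over all rows tested in 54.7%. In bulk RNA a lower level in every cell and a smaller number of cells with the RNA cannot be told apart.

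Among all 568 antisense rows tested, 65 were higher and 25 lower, with a median of 0.14. At 3 FPKM or more, the 8501 coding genes had a median of -0.03, the 133 lincRNA genes 0.09 and the 27 sense intronic genes 0.01. These are medians of differences over different gene sets, given as a description with no test between the sets.

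By arrangement, 57 members lay inside the coding gene, 35 overlapped it head-to-head (the starts are the overlapping ends), 26 tail-to-tail (the ends overlap) and 8 contained the coding gene. A further 12 overlapped no coding gene but had a coding start on the opposite strand within 5000 bases, and 14 had neither. The median log2 fold change of members was 0.13 inside the coding gene, 0.18 head-to-head, 0.10 tail-to-tail, 0.45 for those that contain the coding gene, 0.11 beside a coding start and 0.03 with neither. Of the 8 that contain the coding gene, 4 were higher (AC080112.1, AL157935.1, AC011476.3 and AL118506.1) and 0 were lower, but AC011476.3 lost its call without BrM3-shNC replicate 3 (0.45) and AL118506.1 without BrM3-shAKR1B10 replicate 3, BrM3-shNC replicate 1 or BrM3-shNC replicate 2 (0.47, 0.49 and 0.49). Of these 4, AC080112.1, AL157935.1 and AL118506.1 had means of 2.44, 2.39 and 2.71 FPKM in BrM3-shNC and reached the level of 3 FPKM through BrM3-shAKR1B10 alone, so their direction follows in part from the choice of members and nothing is read from the count. Among the 4, 3 contain a coding gene that was under 1 FPKM and was not tested.

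**Figure D2:**
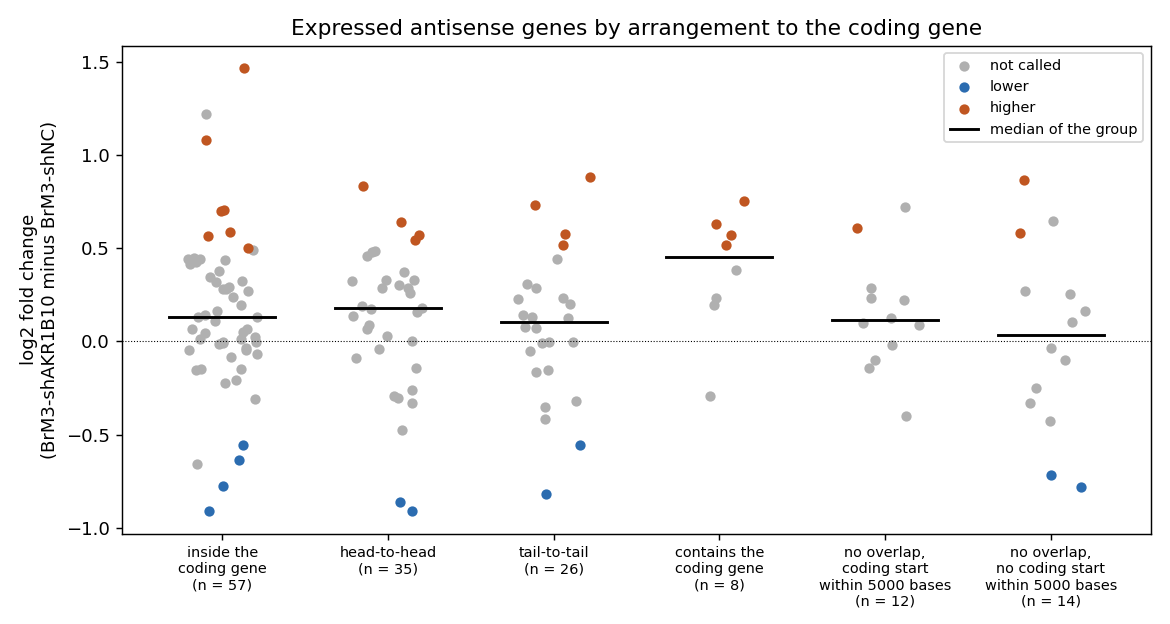
Members by arrangement. Points are 151 antisense genes (AL355075.4, at 9.46 on the fitted scale, is left out), with their log2 fold change between the groups on the y axis, and bars mark the median of each group, AL355075.4 included. Blue and orange points passed the test for lower and higher. Medians lie between 0.03 and 0.45.

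Of the 152 members, 126 overlapped a coding gene on the opposite strand, 25 of them more than 1, and the coding gene with the longest overlap was taken as partner. This gave 123 coding genes, of which 105 were tested, 6 were lower and 4 higher (5.71% and 3.81%, against 7.45% and 5.83% of all rows tested), with a median log2 fold change of 0.01. In 107 pairs both genes were tested. The log2 fold changes of antisense and coding gene had the same sign in 69 pairs (64.5%), and the log2 fold change of the antisense gene was above that of the coding gene in 72. Both were called lower in 4 pairs and both higher in 1, the antisense gene alone was higher in 14 and lower in 3, the coding gene alone was lower in 2 and higher in 3, and 79 pairs had neither called. In 1 pair, AL355075.4 and PARP2, the calls went in opposite directions. Across pairs the log2 fold changes had a Pearson's r of 0.61 and a Spearman's rho of 0.57 without AL355075.4 (106 pairs), and 0.10 and 0.53 with it. In the 36 pairs that share no exon base these were 0.59 and 0.56. The points share their libraries and, for BCAN and SUN2, the coding gene, so the correlation is a description across genes.

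The lower members held 2 genes of the HOXC cluster on chromosome 12, whose homeobox genes encode transcription factors of body patterning. HOTAIR (chr12:53962308-53974956, minus strand) was at 2.54, 2.53 and 2.56 FPKM in BrM3-shAKR1B10 and 4.52, 4.75 and 4.86 FPKM in BrM3-shNC. The groups did not overlap, with a log2 fold change of -0.86 ± 0.05 (SE, limma adjusted p = 7.13e-05). HOXC11, which HOTAIR overlaps head-to-head, was at 1.85, 1.46 and 1.52 against 2.24, 2.59 and 1.93 FPKM, a log2 fold change of -0.46 ± 0.14 that missed the fold threshold. HOXC13-AS (chr12:53935328-53939643, minus strand) was at 2.85, 2.24 and 2.0 FPKM in BrM3-shAKR1B10 and 4.26, 5.42 and 3.93 FPKM in BrM3-shNC. It fell by 0.91 ± 0.16 on the log2 scale (limma adjusted p = 0.00489). Both antisense genes reached a mean of 3 FPKM through BrM3-shNC alone, so their direction follows in part from the choice of members. HOXC13 itself fell from 15.7, 15.9 and 16.2 FPKM to 9.95, 10.4 and 10.6 FPKM (log2 fold change -0.62 ± 0.04), and both genes of this pair were lower without any overlap of the groups. Of the other coding genes of the cluster, looked at after these values were seen, HOXC8 (-0.53) and HOXC9 (-0.57) were called, HOXC6 (-0.43) and HOXC4 (-0.29, limma adjusted p = 0.169) were not, and HOXC5, HOXC10 and HOXC12 were under 1 FPKM and not tested. HOXC8 lost its call without BrM3-shAKR1B10 replicate 3 or BrM3-shNC replicate 2 (-0.46 and -0.47). In the HOXB cluster the coding gene HOXB3 was called lower (-0.54, and -0.497 without BrM3-shAKR1B10 replicate 3, which ended the call), and HOXB-AS3, head-to-head with it, had a log2 fold change of -0.30 ± 0.07, within the fold threshold.

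At BCAN, which encodes brevican, a proteoglycan of the brain matrix, both antisense members fell with the coding gene. AL365181.3 (chr1:156641666-156644887, minus strand), a single exon inside BCAN, was at 29, 28.2 and 28.1 FPKM in BrM3-shAKR1B10 and 48.3, 49.8 and 48.3 FPKM in BrM3-shNC. AL590666.2 (chr1:156646507-156661424, minus strand), tail-to-tail with BCAN, was at 17.5, 17.5 and 21.0 against 34.8, 29.9 and 34.1 FPKM. BCAN was at 3.0, 3.12 and 2.76 against 5.42, 5.36 and 5.26 FPKM, so that both antisense genes exceeded it in every library. The log2 fold changes were -0.78 ± 0.03, -0.82 ± 0.09 and -0.83 ± 0.06, and the ratios of antisense to coding gene differed between the groups by 0.06 ± 0.12 and 0.02 ± 0.17 on the log2 scale (SE, limma adjusted p = 0.816 and 0.958). Both members share the partner and are not independent of each other. The neighbouring NES, which encodes the intermediate filament nestin and was chosen after its value was seen, had a log2 fold change of -0.96 ± 0.08. HAPLN2, the coding neighbour on the other side, averaged 0.391 FPKM in the silenced libraries against 0.360 FPKM in the controls, with overlapping groups, and was not tested.

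PRR11, a gene of cell cycle progression, was the coding partner with the deepest fall. AC099850.3 (chr17:59202677-59203829, minus strand), inside PRR11, was at 15.2, 11.2 and 15.5 FPKM in BrM3-shAKR1B10 and 26.3, 30.9 and 21.5 FPKM in BrM3-shNC. PRR11 was at 8.0, 7.11 and 7.37 against 15.5, 17.6 and 18.8 FPKM. The log2 fold changes were -0.91 ± 0.17 and -1.19 ± 0.08, and 224 of the 321 exon bases of AC099850.3 are its own. From a list of 47 cell cycle genes, 37 of the 46 tested were lower and 0 higher (median -1.05), against 7.45% and 5.83% of all rows tested, but 0 of the 47 are partners of a member.

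The remaining lower members had no coding partner that was called. AP003119.1 (log2 fold change -0.78 ± 0.08) and AC006329.1 (-0.72 ± 0.14) have no coding start of the opposite strand within 5000 bases. AP003119.1 was at 18.1, 20.5 and 19.1 FPKM in BrM3-shAKR1B10 and at 30.8, 36.9 and 31.6 FPKM in BrM3-shNC. SH3PXD2A-AS1 fell by 0.64 on the log2 scale, while SH3PXD2A, which encodes a scaffold of invadopodia, had -0.16. MIF-AS1 fell by 0.56 and MIF, a secreted cytokine, had -0.16. DLGAP1-AS2 fell by 0.55 and DLGAP1 was at most 0.003 FPKM in mean. DLGAP1-AS2 is a member through BrM3-shNC alone, so its direction follows in part from the choice of members. Leaving out BrM3-shAKR1B10 replicate 1 or BrM3-shNC replicate 3 ended the call of MIF-AS1 (-0.47 and -0.46), and leaving out BrM3-shAKR1B10 replicate 2 or BrM3-shNC replicate 3 that of DLGAP1-AS2 (-0.46 and -0.48). A pseudocount of 1 also ended the calls of MIF-AS1 (-0.48) and DLGAP1-AS2 (-0.44).

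**Figure D3:**
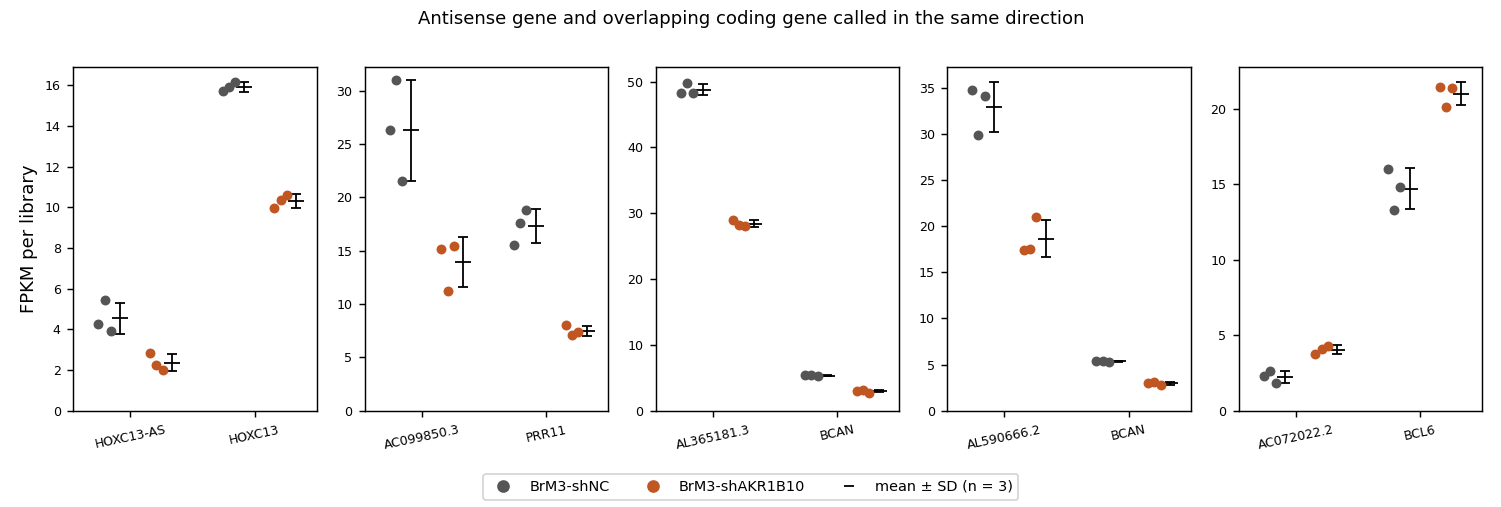
Pairs in which both genes passed the test in the same direction. Points are FPKM of single libraries (y axis, from 0, a scale of its own in each panel), grey for BrM3-shNC and orange for BrM3-shAKR1B10, with mean ± SD (n = 3) beside them. Groups do not overlap in any of the genes shown, and only AC072022.2 and BCL6 were higher in BrM3-shAKR1B10.

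The higher members were led, aside from AL355075.4, by genes of few reads. SLC12A9-AS1, inside SLC12A9, a gene of the cation-chloride cotransporter family, was at 4.14, 5.4 and 4.43 FPKM in BrM3-shAKR1B10 and 1.92, 2.4 and 0.891 FPKM in BrM3-shNC, from 27, 36 and 29 against 13, 15 and 6 reads. Its log2 fold change was 1.47 ± 0.33, and that of SLC12A9 was 0.37. AL031186.1, inside RHBDD3, had 58, 42 and 72 reads in BrM3-shAKR1B10 against 22, 26 and 31 in BrM3-shNC. This gave a log2 fold change of 1.08 ± 0.22, with 0.13 for RHBDD3. LINC01389, with no coding partner, had 0.87 ± 0.23, and its call was lost without any single BrM3-shAKR1B10 replicate (limma adjusted p from 0.0529 to 0.0701). AC080112.1 (0.75), AL606489.1 (0.73), GAS8-AS1 (0.71) and MYO16-AS1 (0.70) completed the list of the 10 highest together with SAP30L-AS1 and AC072022.2. AL606489.1 lost its call without BrM3-shAKR1B10 replicate 1 or 3 or BrM3-shNC replicate 1 (limma adjusted p = 0.071, 0.0875 and 0.061) and with a replicate block (0.0651).

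The pair in which both genes were called higher was AC072022.2 and BCL6, a transcriptional repressor. AC072022.2 (chr3:187743686-187746028, plus strand) was at 3.76, 4.12 and 4.29 FPKM in BrM3-shAKR1B10 and 2.29, 2.64 and 1.82 FPKM in BrM3-shNC. BCL6 was at 21.5, 20.1 and 21.4 against 16.0, 13.3 and 14.8 FPKM. On the log2 scale the antisense gene rose by 0.84 ± 0.13 and BCL6 by 0.51 ± 0.07, with no overlap of the groups in either. AC072022.2 is a member through BrM3-shAKR1B10 alone, so its direction follows in part from that choice. BCL6 lay at the fold threshold and lost its call without BrM3-shAKR1B10 replicate 1 (0.498), BrM3-shAKR1B10 replicate 3 (0.4999) or BrM3-shNC replicate 2 (0.444). Where only the coding gene was called higher, the members were not called. AC103563.7 had 0.48 with MAL at 0.79, AC022400.1 had 0.32 ± 0.20 with CAMK2G at 0.51, and ASB16-AS1 had 0.13 ± 0.09 with ASB16 at 0.57. MAL kept its call without each of the 6 libraries, CAMK2G lost it without BrM3-shAKR1B10 replicate 3 or BrM3-shNC replicate 2 (0.49 in both), and ASB16 lost it without any library but BrM3-shNC replicate 2 (limma adjusted p from 0.0505 to 0.0822) and with a replicate block (0.0502).

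To compare both genes of a pair within the same libraries, limma was applied to the difference of their log2 values in all 407 antisense to coding pairs with both means at 1 FPKM or more. In 1.47% of these pairs the difference changed between the groups, and in 89 pairs the unadjusted p was under 0.05. Among the 107 pairs of members it changed in 3, with 27 at an unadjusted p under 0.05. AFAP1-AS1 (chr4:7754090-7778928, plus strand) was at 22.3, 22 and 22.6 FPKM in BrM3-shAKR1B10 and 19.1, 19.1 and 18.9 FPKM in BrM3-shNC. AFAP1, which encodes an actin filament binding protein and lies tail-to-tail with it, was at 4.83, 4.79 and 4.92 against 7.08, 6.96 and 6.86 FPKM. The libraries of both groups were well apart in each gene and in opposite directions, with log2 fold changes of 0.23 ± 0.03 and -0.51 ± 0.04 and a difference of 0.74 ± 0.12 (limma adjusted p = 0.032). PSMA3-AS1 (chr14:58265365-58298134, minus strand) was at 9.33, 9.29 and 8.49 against 6.79, 6.07 and 6.0 FPKM, while PSMA3, a subunit of the proteasome core, was at 42.2, 45.9 and 43.3 against 52.2, 47.1 and 46.3 FPKM, with no overlap of the groups in either gene. The log2 fold change of PSMA3-AS1 was 0.52 and that of PSMA3 was -0.15 ± 0.06, which did not pass (limma adjusted p = 0.0786). The difference was 0.66 ± 0.11 (limma adjusted p = 0.032). ARID4A, the coding gene with a start within 1000 bases of that of PSMA3-AS1, had a log2 fold change of 0.20 ± 0.07. The difference between PSMA3-AS1 and ARID4A was 0.32 ± 0.15 and was not called (limma adjusted p = 0.297). Leaving out any 1 of the 6 libraries ended the AFAP1 call (adjusted p from 0.0749 to 0.099) and the PSMA3 call (0.0736 to 0.107), a replicate block ended both (0.131), and the sizes stayed at 0.73 to 0.75 and 0.61 to 0.70.

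Members that start close to a coding gene were also compared with that gene, whether or not they overlap. This comparison was chosen after the data were seen. In 51 members a coding start of the opposite strand lay within 1000 bases, and in 48 of these the coding gene was tested. The median log2 fold change was 0.20 over these 51 members and -0.01 over the coding genes, and the sign agreed in 27 of 48. Over all 175 antisense to coding pairs with such starts, the ratio differed in 2.86%, and over the 48 pairs of members in 4, with 11 at an unadjusted p under 0.05. In these 4 the log2 fold change of the antisense gene was above 0 and that of the coding gene below 0, but SAP30L-AS1, TAF1A-AS1 and AL355075.4 averaged 2.88, 2.52 and 0 FPKM in BrM3-shNC and are members through BrM3-shAKR1B10 alone, so their direction follows in part from the choice of members. MHENCR was above 3 FPKM in both groups.

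SAP30L-AS1 (chr5:154329437-154445850, minus strand) starts 107 bases from SAP30L, a subunit of the Sin3A corepressor complex, and shares no exon base with any gene. It was at 5.37, 5.20 and 5.49 FPKM in BrM3-shAKR1B10 and 3.51, 2.64 and 2.50 FPKM in BrM3-shNC. SAP30L was at 5.39, 5.39 and 5.05 against 6.80, 6.58 and 6.30 FPKM, so the 2 genes were at like levels in the silenced libraries, whereas SAP30L exceeded its antisense neighbour in every control library. The log2 fold changes were 0.88 ± 0.12 and -0.31 ± 0.05, and the difference was 1.19 ± 0.17 (limma adjusted p = 0.00754). The coding gene that SAP30L-AS1 overlaps, over most of its span, is GALNT10, a glycosyltransferase of mucin-type glycosylation. GALNT10 was at 49.3, 50.2 and 49.4 against 38.5, 36.9 and 36.5 FPKM (log2 fold change 0.41 ± 0.03), the same direction as SAP30L-AS1. In the comparison of overlapping pairs, the ratio of SAP30L-AS1 to GALNT10 was not called. Without BrM3-shNC replicate 2 the difference from SAP30L was 1.14 with an adjusted p of 0.0533.

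MHENCR (chr20:63627227-63628824, plus strand) starts 186 bases from GMEB2, a transcription factor that modulates the response to glucocorticoids. MHENCR was at 11.6, 11.0 and 8.66 FPKM in BrM3-shAKR1B10 and 6.60, 6.79 and 6.84 FPKM in BrM3-shNC, and GMEB2 was at 11.9, 11.1 and 11.7 against 15.4, 15.7 and 14.8 FPKM. All silenced libraries were above all controls for MHENCR and below them for GMEB2. The log2 fold changes were 0.61 ± 0.11 and -0.40 ± 0.04, and the difference was 1.01 ± 0.15 (limma adjusted p = 0.00832). It lost its call without BrM3-shNC replicate 1 (0.99, adjusted p = 0.0592) or replicate 2 (0.99, 0.0706).

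TAF1A-AS1 starts 108 bases from TAF1A, a subunit of the factor that recruits RNA polymerase I to ribosomal DNA. It was at 3.43, 4.09 and 3.19 FPKM in BrM3-shAKR1B10 and 2.52, 2.73 and 2.31 FPKM in BrM3-shNC, with 61 to 107 reads a library, so that it reached 3 FPKM through the group where it is higher. TAF1A was at 7.10, 6.85 and 7.28 against 9.32, 9.25 and 9.01 FPKM. The antisense gene had a log2 fold change of 0.48 ± 0.11, just under the fold threshold, and TAF1A of -0.37 ± 0.04, and the difference was 0.86 ± 0.17 (limma adjusted p = 0.0344). Over the 407 overlapping pairs the same difference had an adjusted p of 0.0712, and leaving out any library but BrM3-shAKR1B10 replicate 3 took it to 0.0897 to 0.137.

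**Figure D4:**
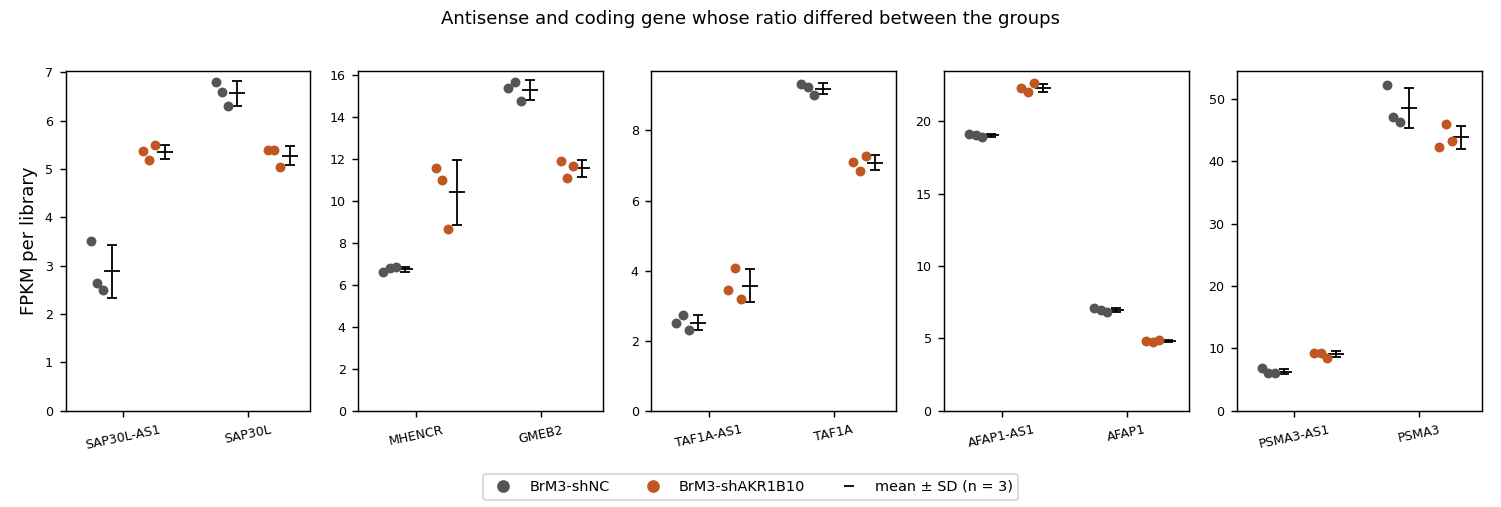
Pairs of members whose antisense to coding ratio differed between the groups (AL355075.4 and PARP2, also called, are left out). Points are FPKM of single libraries (y axis, from 0, a scale of its own in each panel), grey for BrM3-shNC and orange for BrM3-shAKR1B10, with mean ± SD (n = 3) beside them. In each panel the antisense gene on the left is higher and the coding gene on the right lower in BrM3-shAKR1B10, by 1.19 (SAP30L-AS1) to 0.66 (PSMA3-AS1) on the log2 scale for the ratio.

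AL355075.4 (chr14:20343048-20343685, minus strand) was the member furthest from the rest. It had no read in the BrM3-shNC libraries and 1002, 754 and 682 reads in the BrM3-shAKR1B10 libraries, at least 271-fold higher when each control library is set at 3 reads. PARP2, a DNA repair enzyme that starts 103 bases away, was at 3.21, 3.50 and 3.59 FPKM in BrM3-shAKR1B10 and 4.86, 5.17 and 5.58 FPKM in BrM3-shNC. Only 201 of the 638 exon bases of AL355075.4 are its own, and the 174 in capitals in the PARP2 window above adjoin RPPH1, the gene of the RNase P RNA, which was listed at 0 in all 6 libraries. That stretch upstream of RPPH1 is the H1 promoter, which some shRNA vectors also carry. The promoter of the LV2 vector is not given in the sources used here, and the BrM3-shNC libraries, which carry a hairpin in the same vector, had 0 reads on the gene. Reads of a vector and of the chromosome cannot be told apart in a gene table, and the part of either in the result was not tested.

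The other 44 pairs of members with near starts showed no difference in ratio that passed. LENG8-AS1, 158 bases from LENG8, was at 13.0, 11.1 and 13.6 FPKM in BrM3-shAKR1B10 and 8.78, 8.20 and 8.61 FPKM in BrM3-shNC (log2 fold change 0.55 ± 0.08, and 0.23 for LENG8). Its call was lost without BrM3-shAKR1B10 replicate 3 (0.49). Farther from its coding start, GATA2-AS1, whose partner encodes a transcription factor of blood development, had 0.33 ± 0.06 and GATA2 0.44, neither of them past the fold threshold. The other called members had log2 fold changes of 0.50 to 0.64.

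Of 28 genes for RNA surveillance and cleavage that act on antisense and promoter upstream transcripts (the exosome, its nuclear adaptors, Integrator and cleavage factors), 0 were called by limma in either direction with the fold threshold, against 7.45% of all rows called lower and 5.83% higher. Without that threshold 8 were lower and 1 higher at an adjusted p under 0.05, against 23.1% and 19.4% of all rows tested. The lower ones were the exosome subunits EXOSC8 (-0.41), EXOSC9 (-0.39) and EXOSC10 (-0.32), the exosome helicase MTREX (-0.26), ZFC3H1 (-0.32), SRRT (-0.30), ZC3H18 (-0.32) and the Integrator subunit INTS1 (-0.16), and the higher one was the exosome nuclease DIS3 (0.29). Across the list, log2 fold changes ranged from -0.41 (EXOSC8) to 0.35 (EXOSC4, which did not pass), with a median of -0.12, against -0.01 over all rows tested. Whether these RNA levels have a part in the levels of the members was not tested.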

How the data were processed

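RNA of 6 PC9-BrM3 libraries was sequenced after poly(A) selection. Per the labels, the authors aligned reads with HISAT2 2.0.5 and counted them with featureCounts 1.5.0-p3. The authors deposited FPKM per gene, with replicates not pooled. The strand setting and the handling of overlapping genes are not given in the sources used here. Positions and exon lengths of all 58735 rows match GENCODE 29 (GRCh38). FPKM times length gave whole reads for 100% of values within 0.01.

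Members and gene lists were chosen with earlier results of these data known. With limma 3.58.1 (R 4.3.3), log2(FPKM + 0.1) of the 13150 rows with a mean of at least 1 FPKM was fitted with a mean-variance trend and Benjamini-Hochberg adjustment (BrM3-shAKR1B10 minus BrM3-shNC), tested on simulated data. FPKM are not counts, so no count model was the main test. Exons came from GENCODE 29, promoter windows from RefSeq. Tables were handled in Python 3.11.15 with pandas 2.3.3 and numpy 2.4.6.

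Named members are the 10 most abundant, the 10 lowest and 10 highest called, those with a partner or ratio called apart, rows at the threshold and a list of known antisense genes, of which FGD5-AS1, AFAP1-AS1 and MIF-AS1 are members. Others named, among them the pairs with near starts, GATA2-AS1 and LENG8-AS1, were chosen after their values were seen. Alternatives were pseudocounts of 1 and 0.01, no filter, TPM, quantile scaling, no trend, voom on recovered reads, a replicate block, other thresholds and partners, and leaving out each library. The fold against 3 reads covers counting error only.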

Additional observations from a re-analysis of the deposited data

How the results depend on the processing

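With 3 libraries a group and a median of 617 reads per member over all 6, the fold threshold left changes uncalled. At an adjusted p under 0.05 alone, 14 of the 152 members were lower and 48 higher. Over all 13150 rows tested, 23.1% were lower and 19.4% higher by that rule. A log2 threshold of 1 left 0 lower and 3 higher members and 1 lower and 0 higher coding partners, and a member level of 5 FPKM left 11 higher members. For the members, a pseudocount of 1 gave 8 lower and 17 higher, and 19 were higher with no filter, 26 with TPM and 27 with voom. For the coding partners, a pseudocount of 1 gave 3 lower and 2 higher, and 7 were higher with TPM, 7 with quantile scaling and 8 with voom. Leaving out each library in turn gave 9 to 11 lower and 20 to 25 higher members, 5 to 9 lower and 1 to 5 higher partners, and 1 to 2 member pairs with a called ratio. That count of 3 pairs became 8 with a pseudocount of 1, and 1 with no filter, without a trend and with voom. The replicate block gave 10 lower and 21 higher members and 1 pair with a called ratio. The replicate numbers share only a number, since deviations of same-numbered libraries correlated at -0.0155, 0.00388 and 0.00383. Of the called members, 8 lower and 12 higher kept their call without each of the 6 libraries in turn. In 618 recomputed values of named genes and pairs, 533 kept direction and call, 83 kept direction but lost the call and 2 reversed, FGD5-AS1 with quantile scaling (0.032) and KRT7-AS without BrM3-shAKR1B10 replicate 3 (-0.012, where leaving out another library gave values above 0, up to 0.074). The cause of these changes was not tested.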
